A study of Mus musculus with 24 samples.

Results

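The collagen chain genes are the genes that encode the alpha chains of the collagens. They were taken as every symbol of the deposited expression table that reads Col, a type number, the letter a and a chain number, which gave 44 of its 24016 gene symbols. Where a symbol had several transcripts, the transcript with the highest mean level was kept, so that 44 of the 53 collagen transcripts were used. Poly(A) RNA was sequenced from hindlimb muscles of mice of C57BL/6 background, 7 days after the femoral artery had been ligated on 1 side. The 4 groups of 6 libraries were ischemic gastrocnemius from mice with type 2 diabetes, ischemic gastrocnemius from control mice, normoxic adductor from mice with type 2 diabetes and normoxic adductor from control mice. The labels give neither age, sex nor the way in which diabetes was produced, and they hold no muscle of a leg without ligation. Since all gastrocnemius samples were ischemic and all adductor samples normoxic, muscle identity and ischemia cannot be told apart. Nothing in the labels says that the samples of a group came from separate animals, so the p-values below speak of the scatter among these libraries, part of which may be technical.

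Collagens are proteins whose chains are wound into a triple helix, and each chain is the product of its own gene. Fibrillar collagens form the fibres that carry load in tendon and in the connective tissue of muscle, FACIT collagens bind to the surface of those fibres, type VI forms beaded filaments around muscle fibres, and type IV forms the sheet-like network of the basement membrane under each muscle fibre and capillary. In injured muscle, fibroblasts are the main known source of fibrillar collagen, while vessel walls and muscle fibres contribute to the basement membrane.

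All levels are in RPKM, reads per kilobase of exon scaled to the total reads of the library, a scale on which levels of genes of unequal length can be set side by side. Libraries held 7.13 M to 15.6 M reads, and a floor of 3 reads on a transcript of 1 kb was 0.192 RPKM in the deepest library and 0.421 RPKM in the shallowest, which covers counting error only. Gapdh, a glycolytic enzyme gene, split the libraries into a pair of sets about which the labels are silent. It lay between 677 and 1757 RPKM in 14 libraries, here called the first set, and between 0.365 and 13.7 RPKM in the 10 of the second set. In each muscle the first set holds diabetic 1 to 4 and control 1 to 3, and the second holds diabetic 5 and 6 and control 4 to 6. Both sets hold both muscles and both mouse groups, so the main comparisons are also given within each set. In the second set Gapdh itself differed between the mouse groups, at 3.71 to 9.80 RPKM in diabetic gastrocnemius against 0.556 to 0.802 RPKM in control gastrocnemius, and at 13.0 to 13.7 RPKM in diabetic adductor against 0.365 to 0.831 RPKM in control adductor. In the first set the mouse groups overlapped in Gapdh. Diabetes and whatever separates these libraries in Gapdh cannot be told apart within the second set. Control adductor 2 was the highest of its 6 libraries for 24 of the 27 collagen chain genes tested, and diabetic adductor 4 was the highest of its 6 for 18 of 27. The values they set most are also given without them.

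The most closely linked pair of chain genes, Col4a1 and Col4a2, is transcribed in opposite directions from a common stretch of DNA. The windows around their starts are shown because the levels of both genes in the muscles, and their ratio, are given together below. The sequences are RefSeq's, on build GRCm38.p6, from 250 bases before to 50 bases after the annotated start, 5′ to 3′ on the gene's own strand. The capitals mark the 78 bases (chr8:11312777-11312854) that both windows hold, once on each strand. The annotated starts lie 21 bases apart. In the mm9 annotation of the deposited table, Col4a1 (chr8:11198423-11312826, minus strand) and Col4a2 (chr8:11312829-11449287, plus strand) are separated by 2 bases.
Col4a1 (chr8:11312777-11313076, minus strand): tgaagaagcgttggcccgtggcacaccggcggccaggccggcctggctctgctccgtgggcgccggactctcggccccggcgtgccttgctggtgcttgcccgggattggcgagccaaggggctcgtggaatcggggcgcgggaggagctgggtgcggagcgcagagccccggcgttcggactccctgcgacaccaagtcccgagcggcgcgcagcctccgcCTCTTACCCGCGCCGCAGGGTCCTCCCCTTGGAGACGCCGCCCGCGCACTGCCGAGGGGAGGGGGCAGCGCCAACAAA
Col4a2 (chr8:11312555-11312854, plus strand): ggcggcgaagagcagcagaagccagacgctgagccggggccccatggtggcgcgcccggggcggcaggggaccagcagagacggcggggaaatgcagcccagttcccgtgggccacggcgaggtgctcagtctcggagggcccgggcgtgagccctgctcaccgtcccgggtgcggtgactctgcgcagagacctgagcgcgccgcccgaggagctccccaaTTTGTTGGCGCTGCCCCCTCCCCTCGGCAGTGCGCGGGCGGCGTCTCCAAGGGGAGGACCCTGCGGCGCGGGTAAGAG

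The window of Col1a2, which encodes the second chain of type I collagen, is shown as a single-gene start for comparison. Its capitals mark 2 matches each to CCAAT and to GGGCGG, read on either strand.
Col1a2 (chr6:4505368-4505667, plus strand): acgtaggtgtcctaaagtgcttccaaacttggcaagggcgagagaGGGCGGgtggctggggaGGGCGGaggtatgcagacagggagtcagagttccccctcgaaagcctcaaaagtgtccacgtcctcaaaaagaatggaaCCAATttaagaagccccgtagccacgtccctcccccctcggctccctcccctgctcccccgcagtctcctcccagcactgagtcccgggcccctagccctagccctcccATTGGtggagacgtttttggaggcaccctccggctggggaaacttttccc
Windows were found for 35 of the 44 collagen chain genes, 38 windows in all. CCAAT was present on either strand in 13 of these 38 windows, or 34.2%, against 37.4% of all 32851 windows of that length. GGGCGG was present in 23 windows, or 60.5%, against 35.7% of all, and TATAA in 7, or 18.4%, against 24.9%. A match describes the sequence only.

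A level filter of at least 1 RPKM in at least 6 libraries was passed by 27 of the 44 collagen chain genes, and these were tested in a limma fit over all 12382 genes that passed it. The other 17 were low in every group, and none of them exceeded 226 reads in any library. Of the 27, 15 had 6 or more adductor libraries at 1 RPKM. The other 12 had fewer, and 5 had no adductor library at that level. These 12 passed mainly or wholly through the gastrocnemius libraries, which favoured a higher value there before any test. Counts over the tested genes are therefore given as description, beside the values of the genes that missed the filter. All log2 differences are on log2(RPKM + 0.5), which understates the change of low genes, and a gene is called higher or lower where its Benjamini-Hochberg adjusted p over all genes tested was under 0.05.

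In the ischemic gastrocnemius nearly every tested collagen chain gene was called higher than in the normoxic adductor. In diabetic mice 26 of the 27 tested genes were called higher and 0 lower, where 48.1% of all genes tested were called higher and 8.83% lower. In control mice 25 of 27 were called higher and 0 lower, where 54.4% of all genes were called higher and 8.7% lower. The median log2 difference of the 27 was 3.27 in diabetic mice and 2.98 in control mice, against 0.55 and 0.66 over all genes tested. All 15 genes that reached the filter in the adductor were called in both mouse groups. In single libraries, 23 of the 27 tested genes in diabetic mice had all 6 gastrocnemius values above all 6 adductor values, as did 29% of all genes tested, and 0 had the reverse, as did 2.33%. In control mice this held for 22 of 27, where 33.3% of all genes tested did not overlap in that direction and 3% in the other. With the genes that missed the filter included, it held for 24 of 44 in diabetic mice and 26 of 44 in control mice. The 29% and 33.3% cover only genes that passed the filter. No such share was computed over all genes of the table, so the counts of 44 have no like background. Median-of-ratios scaling, which by its construction centres the typical gene near 0, put the median of all genes at -0.04 in diabetic mice and -0.02 in control mice, and gave 3396 genes called higher and 3247 lower in diabetic mice in place of 5958 and 1093, and 3520 and 3279 in control mice in place of 6730 and 1077. Under that scaling 22 and 23 collagen chain genes were called higher in diabetic and control mice and 0 lower.

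**Figure D1:**
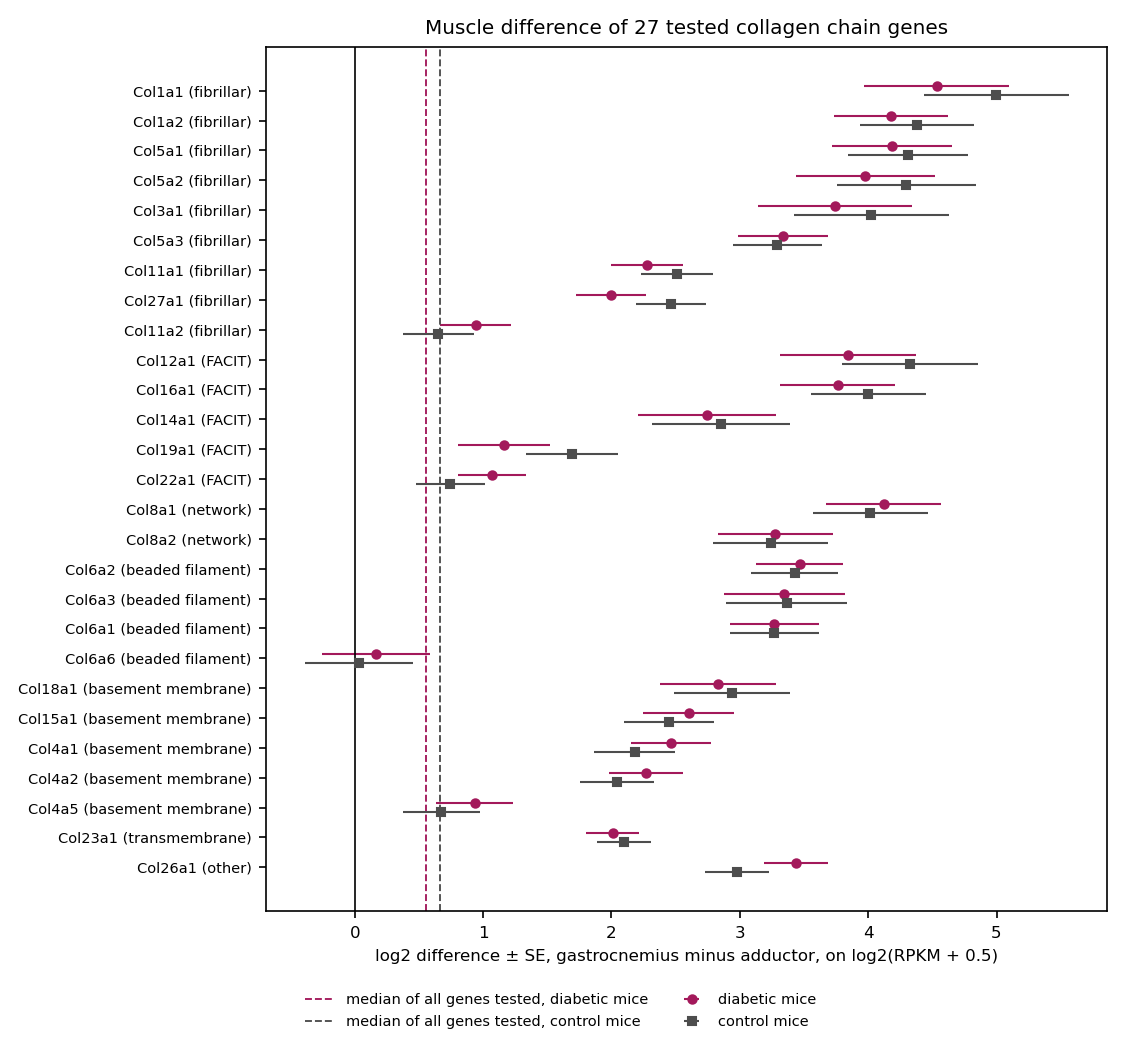
Log2 difference between gastrocnemius and adductor for each of the 27 tested collagen chain genes, grouped by class, with diabetic mice as circles and control mice as squares, bars of 1 standard error and dashed lines at the median of all genes tested. Col6a6 lies left of both dashed lines, Col11a2, Col4a5 and Col22a1 lie near them, and the others lie to the right, with Col1a1 at 4.53 in diabetic mice and 5.0 in control mice.

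The fibrillar chains of types I, III and V, which make up the bulk of the fibres in muscle connective tissue, were among the chains that differed most between the muscles. All 9 tested fibrillar genes were called higher in both mouse groups, with a median log2 difference of 3.74 in diabetic mice and 4.02 in control mice. Among them Col11a1, Col11a2 and Col27a1 had no adductor library at 1 RPKM and passed the filter through gastrocnemius alone, so their calls are description only. Col1a1 (chr11:94797584-94813170 in mm9), the main chain of type I collagen, ran from 453 to 2479 RPKM (median 895) in diabetic gastrocnemius against 31.3 to 113 RPKM (median 39.4) in diabetic adductor. In control mice it ran from 668 to 3075 RPKM (median 1365) in gastrocnemius against 15.8 to 274 RPKM (median 29.7) in adductor. The muscles did not overlap in either mouse group, and the highest adductor value, 274 RPKM, came from control adductor 2. The log2 difference was 4.53 ± 0.56 in diabetic mice and 5.0 ± 0.56 in control mice (standard error, n = 6 per group, limma adjusted p = 5.9e-07 and 1.4e-07), or 23.2-fold and 32.0-fold, and without control adductor 2 the control value was 5.53. Within the first and second library sets it was 4.76 and 4.09 in diabetic mice and 4.37 and 5.63 in control mice. By mean level over all 24 libraries Col1a1 stood at place 40 of all genes in the table. Its place by log2 difference among the 12382 genes tested was 29 from the top in diabetic mice and 19 in control mice.

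Col1a2 (chr6:4455697-4491543), the partner chain of Col1a1, ran from 490.4 to 1437 RPKM (median 647) in diabetic gastrocnemius against 28.0 to 85.5 RPKM (median 39.5) in diabetic adductor. In control mice the values were 568 to 1762 RPKM (median 957) in gastrocnemius and 18.9 to 193 RPKM (median 36.5) in adductor. These groups did not overlap, and the log2 differences were 4.18 ± 0.44 in diabetic mice and 4.38 ± 0.44 in control mice (limma adjusted p = 8e-08 and 3.6e-08). Col3a1 (chr1:45368383-45406551), which forms thin fibres and is abundant in early scar tissue, ran from 197 to 1432 RPKM (median 483) in diabetic gastrocnemius against 26.3 to 113 RPKM (median 35.5) in diabetic adductor. It ran from 309 to 1630.0 RPKM (median 789.7) in control gastrocnemius against 18.3 to 296 RPKM (median 31.9) in control adductor. Here too the groups were separate, though the margin in control mice was small, 309 RPKM against the 296 RPKM of control adductor 2. The log2 difference of Col3a1 was 3.74 ± 0.60 in diabetic mice and 4.02 ± 0.60 in control mice (limma adjusted p = 1.5e-05 and 4.8e-06), and 4.55 in control mice without control adductor 2. In the library sets it was 4.13 and 2.97 in diabetic mice and 3.52 and 4.53 in control mice.

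**Figure D2:**
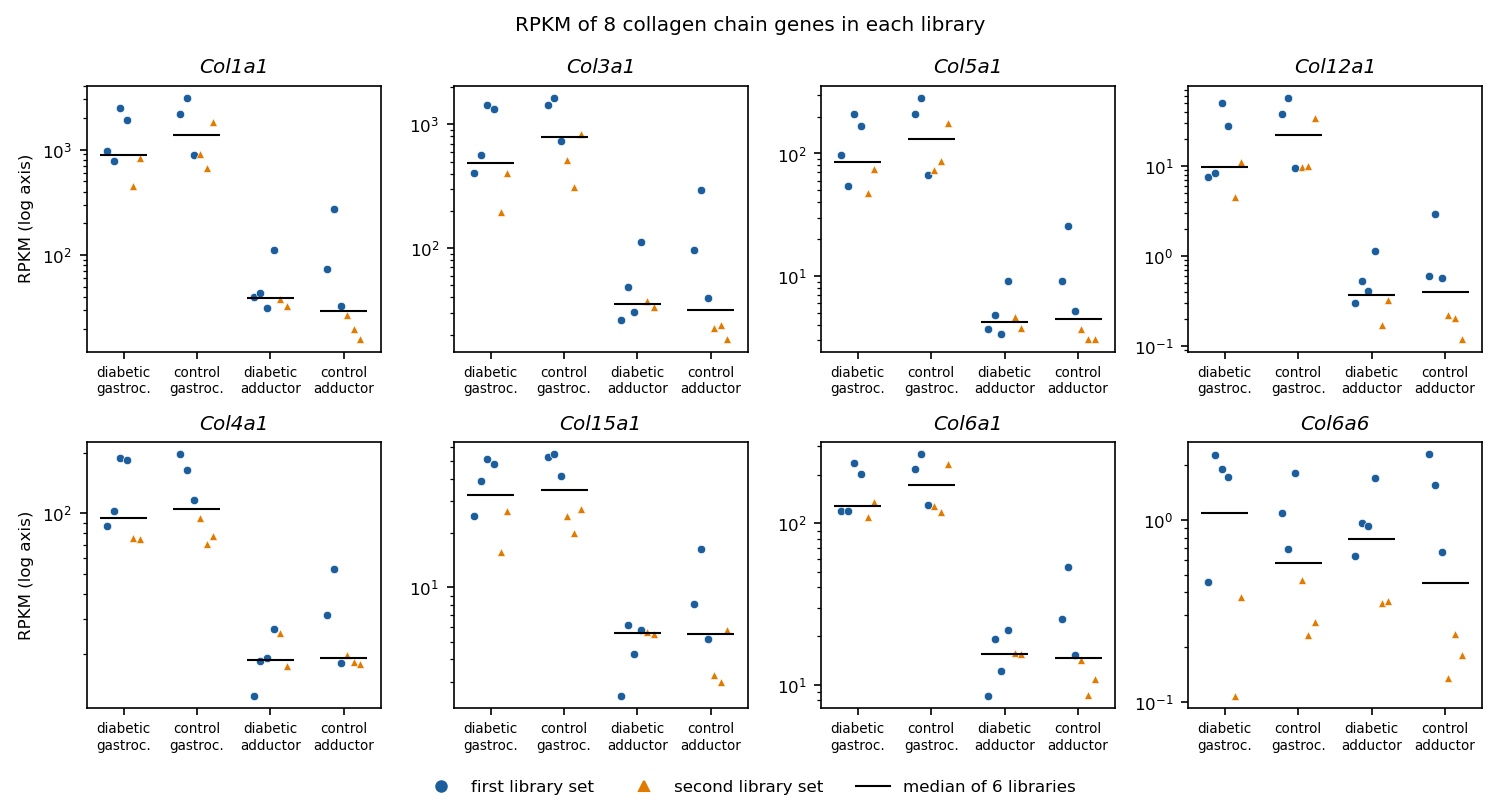
RPKM on a log axis of 8 collagen chain genes in each of the 24 libraries, with circles for the first library set, triangles for the second and a line at the median of 6. Col1a1, Col3a1, Col5a1, Col12a1, Col4a1, Col15a1 and Col6a1 are higher in every gastrocnemius library than in any adductor library of the same mouse group, while the muscles overlap for Col6a6.

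Type V chains are built into type I fibres and limit their thickness. Col5a1 lay between 47.1 and 208 RPKM (median 85.8) in diabetic gastrocnemius against 3.39 and 9.18 RPKM (median 4.20) in diabetic adductor, and between 66.3 and 283 RPKM (median 132) in control gastrocnemius against 3.03 and 25.6 RPKM (median 4.43) in control adductor. Col5a2, the neighbour of Col3a1 at a distance of 24624 bases, lay between 23.3 and 183 RPKM (median 53.8) in diabetic gastrocnemius against 2.60 and 8.23 RPKM (median 3.29) in diabetic adductor. In control mice Col5a2 lay between 42.5 and 228 RPKM (median 97.4) in gastrocnemius against 1.88 and 24.2 RPKM (median 3.20) in adductor. None of these pairs of groups overlapped, and both genes were called in both mouse groups, with log2 differences of 4.19 ± 0.47 and 4.31 ± 0.47 for Col5a1 and of 3.98 ± 0.54 and 4.30 ± 0.54 for Col5a2 in diabetic and control mice. The third chain, Col5a3, ran from 26.1 to 55.7 RPKM in diabetic gastrocnemius against 1.51 to 3.96 RPKM in diabetic adductor, and from 25.4 to 86.7 RPKM in control gastrocnemius against 2.23 to 14.1 RPKM in control adductor. Its log2 differences, 3.34 ± 0.35 and 3.29 ± 0.35, were smaller than those of Col5a1 and Col5a2, and this order was not tested.

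The fibrillar chains best known from cartilage and bone were scarce but did not behave alike. Col11a1, which nucleates cartilage fibres, lay between 1.05 and 5.43 RPKM (median 2.17) in diabetic gastrocnemius against 0.0155 and 0.180 RPKM (median 0.0772) in diabetic adductor. In control mice it lay between 1.39 and 5.56 RPKM (median 2.98) in gastrocnemius against 0.0272 and 0.144 RPKM (median 0.0680) in adductor. The adductor values rest on 1 to 18 reads per library, and the log2 differences of 2.27 ± 0.28 in diabetic mice and 2.51 ± 0.28 in control mice therefore understate the separation of the groups. Col27a1, a fibrillar chain of developing cartilage whose span also holds the gene Mir455, had log2 differences of 2.00 ± 0.27 and 2.46 ± 0.27. Col11a2, the partner of Col11a1, overlapped between the muscles, at 0.456 to 2.20 RPKM in diabetic gastrocnemius against 0.341 to 0.566 RPKM in diabetic adductor, and 0.410 to 1.97 RPKM in control gastrocnemius against 0.395 to 0.736 RPKM in control adductor. Its log2 difference was 0.94 ± 0.28 in diabetic mice (limma adjusted p = 0.0057), with 1.33 and 0.17 in the first and second library sets, and 0.65 ± 0.28 in control mice (adjusted p = 0.044), with 1.02 and 0.28 in the sets. Median-of-ratios scaling removed both calls of Col11a2 (adjusted p = 0.062 and 0.57), quantile normalization gave 0.089 and -0.25, the second library set alone called neither, and leaving out 1 library at a time removed the control call in 9 of 24 fits, those without control adductor 1, 3, 4, 5 or 6 or control gastrocnemius 1, 2, 3 or 6 (adjusted p = 0.053 to 0.11).

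Col24a1, a fibrillar chain of bone, missed the filter. It ran from 0.394 to 1.46 RPKM in diabetic gastrocnemius against 0.0764 to 0.325 RPKM in diabetic adductor, and from 0.661 to 1.07 RPKM in control gastrocnemius against 0.0912 to 0.451 RPKM in control adductor, without overlap in either mouse group. Col2a1, the main chain of cartilage collagen, was close to 0 throughout, at 0.0285 to 0.299 RPKM in diabetic gastrocnemius against 0 to 0.0444 RPKM in diabetic adductor, and 0.0691 to 0.273 RPKM in control gastrocnemius against 0 to 0.0284 RPKM in control adductor. No library held more than 21 reads of Col2a1. In a fit with no filter, over 21039 genes, Col24a1 had log2 differences of 0.95 and 0.91 and Col2a1 of 0.38 and 0.33 in diabetic and control mice, all called.

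Among the FACIT collagens, which decorate fibrillar collagen in tendon and fascia, all 5 tested chains were called higher in both mouse groups. Their median log2 difference was 2.75 in diabetic mice and 2.85 in control mice. Col19a1 and Col22a1 lost calls under other scalings. Only Col14a1 had 6 or more adductor libraries at 1 RPKM, and the other tested FACIT chains passed the filter mainly through gastrocnemius. Col12a1 lay between 4.50 and 50.1 RPKM (median 9.81) in diabetic gastrocnemius against 0.173 and 1.13 RPKM (median 0.368) in diabetic adductor, and between 9.55 and 56.9 RPKM (median 22.1) in control gastrocnemius against 0.118 and 2.92 RPKM (median 0.397) in control adductor. The groups did not overlap, and the log2 differences were 3.85 ± 0.53 and 4.33 ± 0.53 in diabetic and control mice. Col16a1, a FACIT chain of fibroblasts and smooth muscle, lay between 9.71 and 39.7 RPKM in diabetic gastrocnemius against 0.312 and 1.64 RPKM in diabetic adductor, and between 12.4 and 51.8 RPKM in control gastrocnemius against 0.342 and 5.13 RPKM in control adductor, with log2 differences of 3.76 ± 0.45 and 4.0 ± 0.45. Without control adductor 2 the control adductor reached at most 0.602 RPKM of Col12a1 and 1.16 RPKM of Col16a1, and the control differences were 4.67 and 4.39. Col14a1, which binds fibres of mature tendon, had 10.1 to 53.3 RPKM in diabetic gastrocnemius against 1.37 to 6.66 RPKM in diabetic adductor, and 12.1 to 40.8 RPKM in control gastrocnemius against 0.752 to 14.6 RPKM in control adductor. The control muscles overlapped for Col14a1 through control adductor 2. Without that library the control adductor reached at most 6.02 RPKM, the muscles were separate and the control difference was 3.29. Over all libraries its log2 differences were 2.75 ± 0.54 in diabetic mice and 2.85 ± 0.54 in control mice (limma adjusted p = 0.00015 and 8e-05).

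The other FACIT chains were low. Col22a1, a marker of the junction between muscle and tendon, was low in both muscles, at 0.855 to 4.11 RPKM in diabetic gastrocnemius against 0.369 to 0.667 RPKM in diabetic adductor, and at 0.789 to 4.18 RPKM in control gastrocnemius against 0.408 to 1.0 RPKM in control adductor. Only the control muscles overlapped. Its log2 difference was 1.07 ± 0.27 in diabetic mice (limma adjusted p = 0.0016) and 0.74 ± 0.27 in control mice (adjusted p = 0.019), and without control gastrocnemius 3 the control value was 0.49 with an adjusted p of 0.062. Median-of-ratios scaling ended both calls of Col22a1, at 0.63 in diabetic mice (adjusted p = 0.057) and 0.24 in control mice (adjusted p = 0.49), and quantile normalization gave 0.24 and -0.15. The second library set alone did not call it in either mouse group (adjusted p = 0.098 and 0.067), nor did the first in control mice (adjusted p = 0.067). Col19a1, first described in rhabdomyosarcoma cells, had medians of 1.67 RPKM in diabetic gastrocnemius against 0.237 RPKM in diabetic adductor, and 1.99 RPKM in control gastrocnemius against 0.136 RPKM in control adductor, with log2 differences of 1.17 ± 0.36 and 1.69 ± 0.36. The diabetic muscles overlapped for Col19a1, and only 3 of 6 diabetic gastrocnemius libraries stood above every diabetic adductor library. Diabetic adductor 1 held 253 reads of it, against 74 to 507 reads in the diabetic gastrocnemius libraries. The diabetic call of Col19a1 was lost under median-of-ratios scaling (0.76, adjusted p = 0.060), under quantile normalization (0.28, adjusted p = 0.46) and in the first library set alone (1.07, adjusted p = 0.070). Col20a1 missed the filter and overlapped between the muscles, with medians of 0.590 RPKM in diabetic gastrocnemius, 0.384 RPKM in control gastrocnemius, 0.714 RPKM in diabetic adductor and 0.524 RPKM in control adductor. The type IX chains Col9a1, Col9a2 and Col9a3, partners of cartilage fibres, reached at most 0.261, 0.537 and 0.243 RPKM in any library.

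Type VI collagen surrounds each muscle fibre, and in humans mutations of its main chains cause congenital muscle disease. Col6a1 ran from 109 to 236 RPKM (median 127) in diabetic gastrocnemius against 8.53 to 21.8 RPKM (median 15.5) in diabetic adductor, and from 118 to 267 RPKM (median 172) in control gastrocnemius against 8.68 to 53.3 RPKM (median 14.7) in control adductor. Col6a2 ran from 126 to 246 RPKM in diabetic gastrocnemius against 9.47 to 19.8 RPKM in diabetic adductor, and from 141 to 275 RPKM in control gastrocnemius against 7.93 to 58.8 RPKM in control adductor. Col6a3, the largest chain, ran from 37.4 to 188 RPKM in diabetic gastrocnemius against 4.32 to 13.7 RPKM in diabetic adductor, and from 53.8 to 180.2 RPKM in control gastrocnemius against 4.0 to 38.4 RPKM in control adductor. All 3 were separate between the muscles, with log2 differences of 3.27 ± 0.35, 3.47 ± 0.34 and 3.35 ± 0.47 in diabetic mice and of 3.27 ± 0.35, 3.43 ± 0.34 and 3.36 ± 0.47 in control mice. Their ratio differed little, with a median of Col6a1 over Col6a2 of 0.893 in diabetic gastrocnemius and 0.954 in diabetic adductor, and of 0.910 in control gastrocnemius and 1.03 in control adductor.

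Col6a6, an alternative to the third chain of type VI, was the single tested collagen chain gene not called in diabetic mice. It lay between 0.108 and 2.28 RPKM (median 1.09) in diabetic gastrocnemius against 0.349 and 1.70 RPKM (median 0.784) in diabetic adductor, and between 0.233 and 1.83 RPKM (median 0.581) in control gastrocnemius against 0.135 and 2.30 RPKM (median 0.452) in control adductor. The groups overlapped over most of their range. The log2 difference was 0.17 ± 0.42 in diabetic mice (limma adjusted p = 0.76) and 0.03 ± 0.42 in control mice (adjusted p = 0.96), and median-of-ratios scaling turned both to -0.27 and -0.38. The other alternative chains, Col6a4 and Col6a5, reached at most 0.107 and 0.185 RPKM.

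Both type VIII chains, which form networks in vessel walls, were called higher in both mouse groups. Col8a1 lay between 16.3 and 79.3 RPKM (median 50.1) in diabetic gastrocnemius against 1.27 and 2.38 RPKM (median 1.87) in diabetic adductor, and between 17.1 and 109.7 RPKM (median 45.1) in control gastrocnemius against 1.16 and 6.70 RPKM (median 1.86) in control adductor. The log2 differences were 4.12 ± 0.45 in diabetic mice and 4.02 ± 0.45 in control mice, places 49 and 56 from the top of all genes. Without control adductor 2 the control adductor reached at most 2.34 RPKM of Col8a1, and the control difference was 4.30. Col8a2, which assembles with Col8a1, was lower at 2.33 to 16.2 RPKM in diabetic gastrocnemius against 0.105 to 0.472 RPKM in diabetic adductor, and 2.37 to 18.9 RPKM in control gastrocnemius against 0.0228 to 1.03 RPKM in control adductor. Its log2 differences were 3.28 ± 0.45 and 3.24 ± 0.45. Col10a1, the network collagen of growth plate cartilage, was at 0 in 11 of 24 libraries and reached at most 0.397 RPKM.

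Basement membrane collagen was higher in gastrocnemius as well, with a median log2 difference of 2.46 in diabetic mice and 2.18 in control mice over its 5 tested chains, which is below the fibrillar median in both, a difference that was not tested. Col4a1 lay between 74.7 and 188 RPKM (median 94.4) in diabetic gastrocnemius against 12.5 and 26.7 RPKM (median 18.9) in diabetic adductor, and between 70.4 and 196 RPKM (median 105) in control gastrocnemius against 17.9 and 53.2 RPKM (median 19.1) in control adductor. Col4a2 lay between 55.3 and 128 RPKM (median 71.6) in diabetic gastrocnemius against 11.6 and 21.9 RPKM (median 15.8) in diabetic adductor, and between 55.5 and 138 RPKM (median 73.7) in control gastrocnemius against 13.6 and 39.6 RPKM (median 16.0) in control adductor. The muscles were separate for both genes. The log2 differences of Col4a1 were 2.46 ± 0.31 and 2.18 ± 0.31 in diabetic and control mice (limma adjusted p = 8.4e-07 and 3.1e-06), and those of Col4a2 were 2.27 ± 0.29 and 2.04 ± 0.29. The ratio of Col4a1 to Col4a2 lay between 1.08 and 1.5 in all 24 libraries. Its median was 1.35 in diabetic gastrocnemius against 1.17 in diabetic adductor, and 1.40 in control gastrocnemius against 1.27 in control adductor. Whether the shared start of these neighbours bears on the ratio was not tested.

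The type IV chains best known from the kidney glomerulus were low. Col4a5 overlapped between the muscles, with medians of 1.43 RPKM in diabetic gastrocnemius against 0.539 RPKM in diabetic adductor, and 1.48 RPKM in control gastrocnemius against 0.561 RPKM in control adductor. Its log2 difference was 0.93 ± 0.30 in diabetic mice (limma adjusted p = 0.010) and 0.67 ± 0.30 in control mice (adjusted p = 0.054), where a fit with the replicate block called it (adjusted p = 0.0073). The diabetic call was lost under median-of-ratios scaling (0.49, adjusted p = 0.11), under quantile normalization (0.066, adjusted p = 0.82) and in the second library set alone (0.44, adjusted p = 0.072), and quantile normalization turned the control value to -0.26. In control mice Col4a5 was called in each library set alone (adjusted p = 0.042 and 0.016) and in 9 of 24 fits that left out 1 library, with control adductor 1 or 2, control gastrocnemius 4, 5 or 6 or diabetic gastrocnemius 3, 4, 5 or 6 left out (adjusted p = 0.027 to 0.049). Col4a3 was at 0 to 0.179 RPKM in diabetic gastrocnemius against 0.0808 to 0.237 RPKM in diabetic adductor, and at 0 to 0.224 RPKM in control gastrocnemius against 0.0670 to 0.359 RPKM in control adductor. Col4a4, which faces Col4a3 across 71 bases, lay between 0.0302 and 0.637 RPKM. In the fit with no filter the log2 differences of Col4a3 were -0.13 and -0.24 and those of Col4a4 -0.14 and -0.23 in diabetic and control mice, and none was called. Col4a6, 1342 bases from Col4a5, reached at most 0.311 RPKM.

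The multiplexins Col15a1 and Col18a1 link the basement membrane to the surrounding matrix, and a fragment of Col18a1, endostatin, is known to restrain vessel growth. Col15a1 lay between 15.8 and 51.4 RPKM in diabetic gastrocnemius against 2.51 and 6.16 RPKM in diabetic adductor, and between 19.9 and 54.7 RPKM in control gastrocnemius against 2.99 and 16.2 RPKM in control adductor. Col18a1 lay between 12.5 and 59.8 RPKM in diabetic gastrocnemius against 2.67 and 3.77 RPKM in diabetic adductor, and between 16.4 and 74.1 RPKM in control gastrocnemius against 1.55 and 8.62 RPKM in control adductor. Neither overlapped between the muscles, and the log2 differences were 2.60 ± 0.35 and 2.45 ± 0.35 for Col15a1 and 2.83 ± 0.45 and 2.94 ± 0.45 for Col18a1 in diabetic and control mice.

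Col26a1, a chain with short collagen stretches first found in testis and ovary, gave the smallest p of the family. It lay between 3.18 and 7.95 RPKM (median 6.05) in diabetic gastrocnemius against 0 and 0.108 RPKM (median 0.0656) in diabetic adductor, and between 3.04 and 6.73 RPKM (median 4.71) in control gastrocnemius against 0.0278 and 0.801 RPKM (median 0.0604) in control adductor. The adductor libraries held 0 to 4 reads, apart from control adductor 2 with 31, and the gastrocnemius libraries 76 to 328. Every gastrocnemius library stood above every adductor library. The log2 difference was 3.43 ± 0.25 in diabetic mice (limma adjusted p = 8.9e-10) and 2.98 ± 0.25 in control mice (adjusted p = 5.5e-09), and 3.18 in control mice without control adductor 2. Col23a1, a membrane-spanning chain, ran from 1.89 to 4.02 RPKM in diabetic gastrocnemius against 0.184 to 0.435 RPKM in diabetic adductor, and from 2.27 to 4.46 RPKM in control gastrocnemius against 0.148 to 0.777 RPKM in control adductor, with log2 differences of 2.01 ± 0.21 and 2.10 ± 0.21. Neither Col26a1 nor Col23a1 had an adductor library at 1 RPKM, so both passed the filter through gastrocnemius alone.

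The remaining chains missed the filter. Col13a1, a membrane-spanning chain of the neuromuscular junction, had medians of 0.571 RPKM in diabetic gastrocnemius against 0.105 RPKM in diabetic adductor and 0.524 RPKM in control gastrocnemius against 0.0426 RPKM in control adductor. For Col25a1, which in mice is needed for motor axons to enter muscle, the medians were 0.222 RPKM in diabetic gastrocnemius against 0.0328 RPKM in diabetic adductor and 0.360 RPKM in control gastrocnemius against 0.0147 RPKM in control adductor. Col17a1, a part of the attachment plaques of skin cells, stayed at or under 0.312 RPKM. Col7a1, the chain of anchoring fibrils, lay between 0.534 and 1.29 RPKM in diabetic gastrocnemius against 0.0378 and 0.941 RPKM in diabetic adductor, and between 0.638 and 1.57 RPKM in control gastrocnemius against 0.172 and 0.517 RPKM in control adductor. Only the control muscles were separate for Col7a1, whose span also holds the gene Mir711. In the fit with no filter 37 of all 44 collagen chain genes were called higher in diabetic mice and 33 in control mice, and 0 were called lower in either. Of all 21039 genes in that fit, 36.2% were called higher and 5.48% lower in diabetic mice, and 39.1% higher and 5.54% lower in control mice.

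Since the classes differed by unequal amounts, the make-up of collagen transcripts differed between the muscles. The following shares and ratios were chosen after their values were seen and carry no test. Summed over the 44 genes, collagen ran from 1849 to 7155 RPKM (median 2766) in diabetic gastrocnemius against 180.1 to 467 RPKM (median 214) in diabetic adductor, and from 2362 to 8492 RPKM (median 4214) in control gastrocnemius against 136 to 1135 RPKM (median 196) in control adductor. As a share of all reads of a library this is 0.963 to 3.83% in diabetic gastrocnemius against 0.0985 to 0.254% in diabetic adductor, and 1.25 to 4.51% in control gastrocnemius against 0.0756 to 0.616% in control adductor. The highest values of the adductor groups came from diabetic adductor 4 and control adductor 2. Without them the sum reached at most 256 RPKM, or 0.141% of reads, in diabetic adductor and 414 RPKM, or 0.228%, in control adductor. Fibrillar chains made up 70.6 to 81.2% of the summed collagen RPKM in diabetic gastrocnemius against 54.0 to 71.4% in diabetic adductor, and 75.8 to 83.4% in control gastrocnemius against 46.1 to 72.9% in control adductor. The diabetic groups overlapped by a narrow margin, and the control groups did not. Without diabetic adductor 4 and control adductor 2 the fibrillar share reached at most 65.3% in diabetic adductor and 63.3% in control adductor, and neither mouse group overlapped. Basement membrane chains made up 5.96 to 9.08% in diabetic gastrocnemius against 12.8 to 24.6% in diabetic adductor, and 3.47 to 8.50% in control gastrocnemius against 10.5 to 29.5% in control adductor, without overlap. The beaded filament (type VI) chains held a median of 12% in diabetic gastrocnemius against 17.5% in diabetic adductor, and of 11.4% in control gastrocnemius against 17.3% in control adductor.

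**Figure D3:**
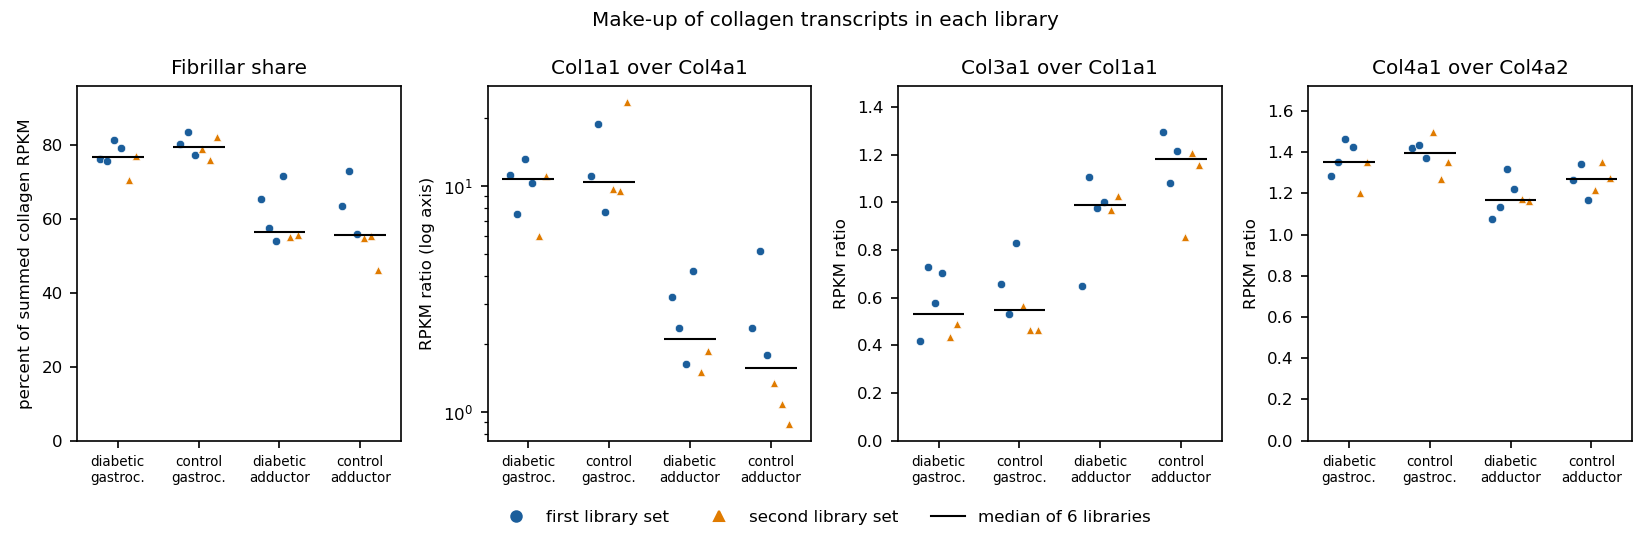
Share of fibrillar chains in the summed collagen RPKM and 3 ratios of RPKM between chains in each of the 24 libraries, with circles for the first library set, triangles for the second and a line at the median of 6. The fibrillar share is higher in gastrocnemius, with medians of 76.6% in diabetic and 79.4% in control mice, than in adductor, with 56.5% and 55.5%.

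Single pairs of chains showed the same. Col1a1 was 6.02 to 13.2 times the level of Col4a1 in diabetic gastrocnemius against 1.5 to 4.22 times in diabetic adductor, and 7.68 to 23.5 times in control gastrocnemius against 0.882 to 5.14 times in control adductor, without overlap. The ratio of Col3a1 to Col1a1 had a median of 0.533 in diabetic gastrocnemius against 0.988 in diabetic adductor, and of 0.547 in control gastrocnemius against 1.18 in control adductor. Its values overlapped in diabetic mice, with up to 0.727 in gastrocnemius and down to 0.651 in adductor. For Col12a1 over Col14a1 the medians were 0.527 in diabetic gastrocnemius against 0.142 in diabetic adductor, and 0.929 in control gastrocnemius against 0.178 in control adductor. The fibrillar share was the higher in gastrocnemius in both library sets, with medians of 77.7% and 73.7% in diabetic gastrocnemius against 61.4% and 55.3% in diabetic adductor, and of 80.1% and 78.7% in control gastrocnemius against 63.3% and 54.9% in control adductor.

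The genes that fold, trim and cross-link collagen were higher in gastrocnemius too. Of all genes tested, 48.1% in diabetic and 54.4% in control mice were called higher, and 8.83% and 8.7% lower. Of 26 tested genes for folding and processing, 22 were called higher in diabetic mice and 23 in control mice, and 0 lower, with a median log2 difference of 2.62 and 2.79 against 0.55 and 0.66 over all genes. Serpinh1, the chaperone specific for collagen, ran from 87.6 to 337 RPKM (median 186) in diabetic gastrocnemius against 16.2 to 27.4 RPKM (median 21.0) in diabetic adductor, and its log2 difference was 2.98 ± 0.35 in diabetic mice and 3.33 ± 0.35 in control mice. Fkbp10, a folding enzyme of type I collagen, gave 4.22 ± 0.37 and 4.13 ± 0.37, and Lox, which starts the cross-linking of fibres, 3.79 ± 0.50 and 4.30 ± 0.50. The chains of prolyl 4-hydroxylase, which stabilises the helix, were unequal, at 3.05 ± 0.38 and 3.59 ± 0.38 for P4ha3 but 0.12 ± 0.22 (limma adjusted p = 0.66) and 0.81 ± 0.22 (adjusted p = 0.0027) for P4ha1 in diabetic and control mice. Median-of-ratios scaling turned P4ha1 to -0.53 in diabetic mice (adjusted p = 0.0060) and gave 0.05 in control mice (adjusted p = 0.80). For the whole list that scaling gave 21 genes called higher in each mouse group, and 2 lower in diabetic and 1 lower in control mice.

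Collagen receptors and the enzymes of collagen breakdown showed a like pattern, to be read beside the 48.1% and 54.4% of all genes called higher in diabetic and control mice. Of 7 tested receptor genes, 6 were called higher in each mouse group (5 in each under median-of-ratios scaling), among them Mrc2, which takes up collagen fragments, at a log2 difference of 3.31 ± 0.40 in diabetic mice and 3.49 ± 0.40 in control mice. Itga1, a chain of a collagen-binding integrin, was not called, at 0.38 ± 0.50 and 0.72 ± 0.50, and median-of-ratios scaling turned the diabetic value to -0.18. Of 9 tested genes for degradation, 8 were called higher and 1 lower in each mouse group, and under median-of-ratios scaling 7 were called higher and 1 lower in diabetic mice. Mmp13, a collagenase, lay between 8.18 and 32.2 RPKM in diabetic gastrocnemius against 0 and 0.210 RPKM in diabetic adductor, and between 16.5 and 50.0 RPKM in control gastrocnemius against 0 and 0.392 RPKM in control adductor. Its log2 difference was 4.82 ± 0.30 in diabetic mice and 5.57 ± 0.30 in control mice. The inhibitors of these enzymes differed in direction, with Timp1 higher at 4.82 ± 0.53 and 5.45 ± 0.53 and Timp3 lower at -0.68 ± 0.21 and -0.59 ± 0.21 (limma adjusted p = 0.0068 and 0.016). Under median-of-ratios scaling and under quantile normalization these directions of Mrc2, Mmp13, Timp1 and Timp3 were kept.

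Markers of several cell types, though not of all, moved with the muscles as well, and their part in the collagen differences was not tested. The counts stand beside 48.1% of all genes tested called higher in diabetic mice and 54.4% in control mice. The bone, keratinocyte, Schwann cell, smooth muscle and adipocyte lists are given with the processing. All 10 fibroblast markers were called higher in both mouse groups, and their sum ran from 759 to 1468 RPKM in diabetic gastrocnemius against 194 to 268 RPKM in diabetic adductor, and from 868 to 2064 RPKM in control gastrocnemius against 192 to 479 RPKM in control adductor. Their median log2 difference, 1.45 and 1.64, lay below the 3.74 and 4.02 of the fibrillar chains, an order that was not tested. Single fibroblast markers ranged from 0.81 to 5.91 in diabetic mice and from 0.91 to 6.48 in control mice. Some of the fibrillar chains had passed the filter through gastrocnemius alone. Under median-of-ratios scaling 6 and 8 of the 10 fibroblast markers were called higher. Macrophage markers were called higher for 6 of 7 in each mouse group (under median-of-ratios scaling 5 higher and 1 lower in diabetic mice and 6 higher and 1 lower in control mice, the lower one being the scavenger receptor gene Cd163), with sums of 264 to 1150 RPKM in diabetic gastrocnemius against 44.3 to 94.6 RPKM in diabetic adductor, and 346 to 1385 RPKM in control gastrocnemius against 26.1 to 227 RPKM in control adductor. For the satellite and myogenic cell list it was 6 of 6, with sums of 437 to 1029 RPKM in diabetic gastrocnemius against 14.4 to 55.9 RPKM in diabetic adductor, and 531 to 922 RPKM in control gastrocnemius against 13.6 to 109 RPKM in control adductor. In bulk samples, fewer cells of a type and less RNA per cell cannot be told apart.

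Tendon markers, 5 of 5 tested, were called higher in both mouse groups, with sums of 209.8 to 447 RPKM in diabetic gastrocnemius against 12.8 to 38.4 RPKM in diabetic adductor, and of 228 to 577 RPKM in control gastrocnemius against 20.5 to 56.6 RPKM in control adductor. Tnmd, a membrane protein of tendon cells, stood at a log2 difference of 3.74 ± 0.25 and 3.82 ± 0.25. Of the cartilage list 3 of 8 genes passed the filter and all 3 were called higher, with sums of 13.2 to 45.5 RPKM in diabetic gastrocnemius against 0.713 to 2.53 RPKM in diabetic adductor, and of 30.9 to 52.4 RPKM in control gastrocnemius against 1.08 to 2.74 RPKM in control adductor. Matn1, a defining cartilage gene, was at 0 in every adductor library, and Col2a1 had at most 21 reads anywhere. Endothelial markers were called higher for 5 of 7, where 48.1% and 54.4% of all genes tested were in diabetic and control mice. Their median log2 difference was 0.79 and 1.04. Under median-of-ratios scaling 0 and 1 of 7 were called higher in diabetic and control mice. Of 8 muscle fibre genes 3 were called lower in diabetic mice and 4 in control mice, where 8.83% and 8.7% of all genes tested were. Their sums ran from 15960 to 49036 RPKM in diabetic gastrocnemius against 39510 to 75268 RPKM in diabetic adductor, and from 12233 to 48192 RPKM in control gastrocnemius against 47342 to 77439 RPKM in control adductor. Every library thus held abundant muscle RNA. These sums do not tell gastrocnemius from adductor, since their ranges overlapped in both mouse groups.

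Diabetes was the other comparison of the design. No collagen chain gene was called between diabetic and control mice in either muscle. In the gastrocnemius 0 of 27 tested genes were called in limma, where 0.00808% of all genes tested were called higher and 0% lower, and 0 had an unadjusted p under 0.05. In the adductor the count was again 0 of 27, where 0.0323% of all genes were called higher and 0% lower, and again 0 had an unadjusted p under 0.05. The test on recovered reads with voom weights called 0 as well. No gene separated all 6 diabetic from all 6 control libraries in gastrocnemius (0.0323% of all genes in each direction) or in adductor (0.194% higher and 0.0242% lower). The median log2 difference of the 27 was -0.17 in gastrocnemius, with 7 of 27 above 0, and -0.15 in adductor, with 6 of 27 above 0, against -0.06 and 0.04 over all genes.

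In the gastrocnemius the intervals were wide. Col1a1 stood at 966, 775, 2479, 1891, 453 and 824 RPKM in diabetic libraries 1 to 6 and at 2167, 3075, 890.1, 913, 668 and 1816 RPKM in control libraries 1 to 6. Each group holds both high and low libraries and their ranges overlap, and the log2 difference was -0.39 ± 0.56 with a 95% interval of -1.55 to 0.78. Within the first and second library sets it was -0.40 and -0.76. For Col3a1 the difference was -0.46 ± 0.60, from -1.70 to 0.79, with -0.56 and -0.86 in the sets. For Col4a1 it was -0.03 ± 0.31, from -0.68 to 0.62, and for Col6a1 -0.23 ± 0.35, from -0.95 to 0.48.

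The genes with the smallest p in gastrocnemius were Col27a1, Col12a1, Col26a1, Col5a2 and Col5a3, all with an adjusted p of 0.999. Col12a1, the FACIT chain of tendon, stood at 7.51, 8.42, 50.1, 27.6, 4.50 and 11.2 RPKM in diabetic libraries 1 to 6 against 37.5, 56.9, 9.55, 9.76, 10.1 and 34.2 RPKM in control libraries 1 to 6. Diabetic 3 and control 2 were the highest of their groups. The log2 difference was -0.63 ± 0.53 (95% interval -1.73 to 0.46), with -0.65 and -1.02 in the library sets. Col27a1 gave -0.40 ± 0.27 (-0.18 and -0.69 in the sets), Col5a2 -0.55 ± 0.54 (-0.59 and -0.97) and Col5a3 -0.35 ± 0.35 (-0.54 and -0.30). Col26a1 was the one of the 5 above 0, at 0.28 ± 0.25 (0.24 and 0.20). By class, the fibrillar chains had a median of -0.39, with 1 of 9 above 0, and the basement membrane chains of -0.03.

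**Figure D4:**
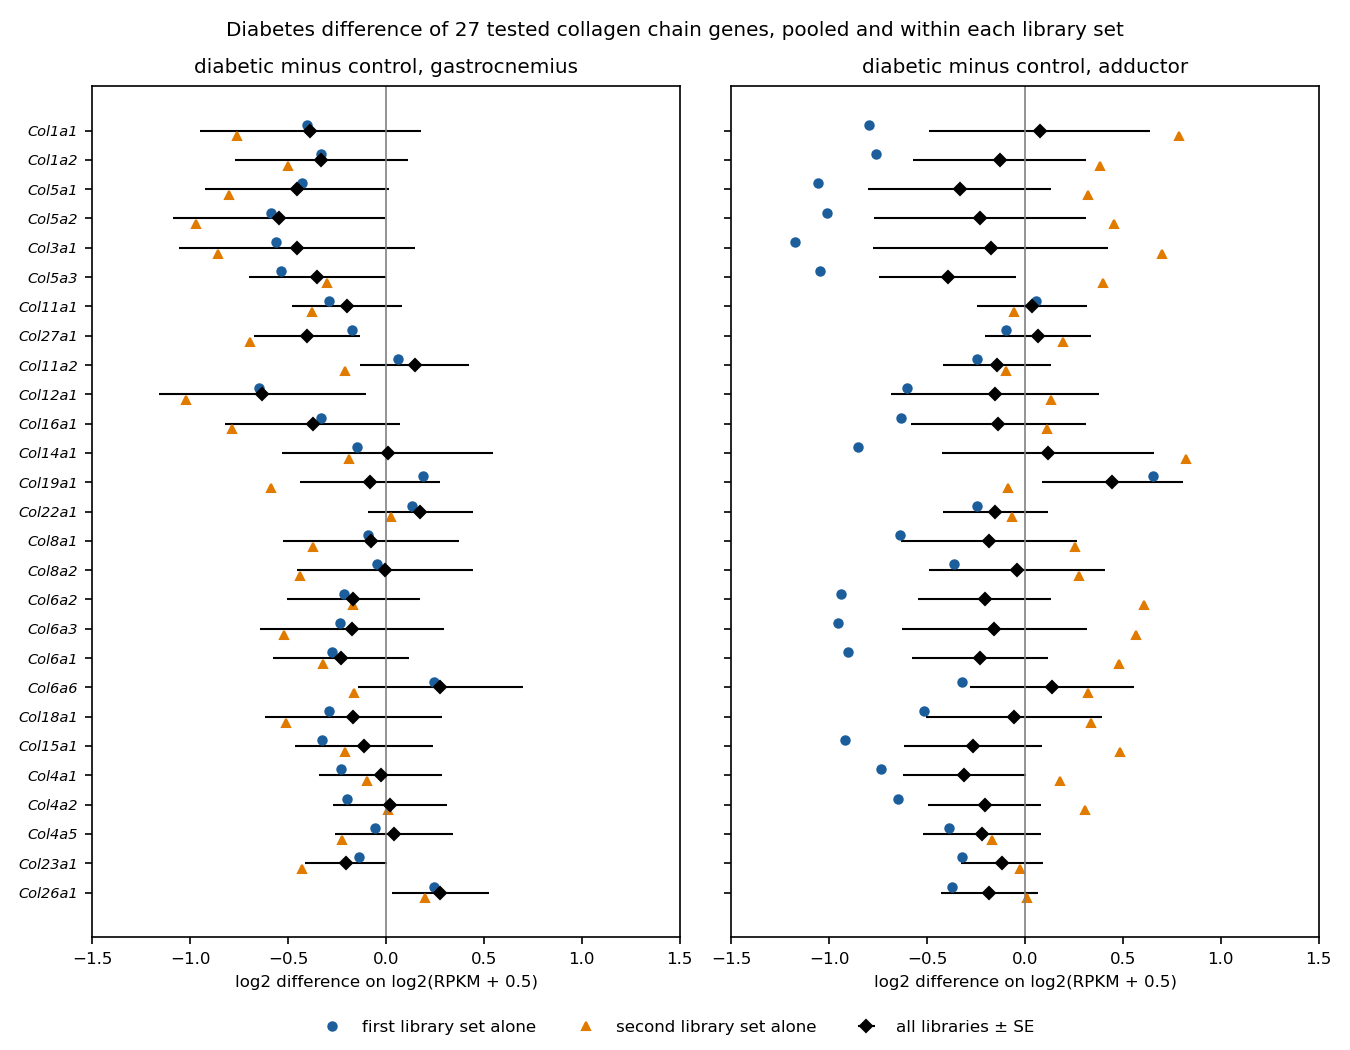
Log2 difference between diabetic and control mice for the 27 tested collagen chain genes in gastrocnemius (left) and adductor (right), with diamonds and bars of 1 standard error for all libraries, circles for the first library set and triangles for the second. In adductor nearly all circles lie left of 0 and most triangles right of it, with medians of -0.64 and 0.31, while in gastrocnemius the medians of the sets are -0.23 and -0.38.

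In the adductor the direction of the collagen chain genes turned between the library sets. Within the first set the median log2 difference of the 27 was -0.64, with 2 of 27 above 0, and within the second it was 0.31, with 21 of 27 above 0. Neither set held a called gene, and 3 genes in the first and 1 in the second had an unadjusted p under 0.05. Leaving control adductor 2 out of the first set, a check added after the data were seen, moved the median there to -0.22, with 6 of 27 above 0. The second set sets 2 diabetic libraries with 13.0 and 13.7 RPKM of Gapdh against 3 control libraries with 0.365 to 0.831 RPKM, and the part of that difference in the turn was not tested. Over all libraries the median was 0.14 without control adductor 2 and -0.28 without diabetic adductor 4. The fibrillar chains gave -0.80 and 0.38 in the first and second set, the basement membrane chains -0.65 and 0.31, and the beaded filament chains -0.92 and 0.52. With a term for the set in the fit, the median over the 27 was -0.27 in adductor and -0.28 in gastrocnemius.

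Most single genes named here followed the same order, but Col19a1 did not. Col1a1 stood at 40.4, 43.9, 31.3, 113, 38.4 and 32.7 RPKM in diabetic adductor 1 to 6 against 74.1, 274, 32.6, 26.8, 19.96 and 15.8 RPKM in control adductor 1 to 6. Control 1 and 2 and diabetic 4, all of the first set, were the highest, and the 3 control libraries of the second set were the lowest of all. The log2 difference was 0.08 ± 0.56 over all libraries (95% interval -1.09 to 1.24), -0.80 in the first set and 0.79 in the second. Col3a1 stood at -0.18 ± 0.60 over all libraries, -1.17 in the first set and 0.70 in the second. The genes with the smallest p in adductor were Col19a1 at 0.45 ± 0.36, Col5a3 at -0.39 ± 0.35, Col4a1 at -0.31 ± 0.31, Col15a1 at -0.27 ± 0.35 and Col26a1 at -0.18 ± 0.25, each with an adjusted p of 1. Of these Col5a3 gave -1.05 and 0.40, Col4a1 -0.74 and 0.18 and Col15a1 -0.92 and 0.48 in the first and second set. Col26a1 was negative in the first set and barely positive in the second. Col19a1 went the other way, positive in the first set and negative in the second.

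Control adductor 2 was also high in lists of other cells. Its fibroblast markers summed to 479 RPKM against 192 to 326 RPKM in the other 5 control adductor libraries, its macrophage markers to 227 RPKM against 26.1 to 127 RPKM, and its satellite and myogenic markers to 109 RPKM against 13.6 to 41.8 RPKM. In diabetic adductor 4 the fibroblast markers summed to 256 RPKM, within the 194 to 268 RPKM of the other 5 diabetic adductor libraries, and the macrophage markers to 91.3 RPKM, within 44.3 to 94.6 RPKM. The part of these cells in the collagen values was not tested.

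The difference between the diabetes effects of the muscles, gastrocnemius minus adductor, is at the same time the difference of the muscle contrast between diabetic and control mice. For this comparison 0 of 27 collagen chain genes were called in limma, where 0% of all genes were called in either direction, and 0 had an unadjusted p under 0.05 or were called with voom weights. The median was -0.02, with 12 of 27 above 0, against -0.11 over all genes. The smallest p belonged to Col26a1 at 0.46 ± 0.35 (95% interval -0.27 to 1.19), Col27a1 at -0.47 ± 0.38 (-1.26 to 0.32), Col19a1 at -0.53 ± 0.51 (-1.58 to 0.52), Col22a1 at 0.33 ± 0.38 (-0.46 to 1.11) and Col11a2 at 0.29 ± 0.39 (-0.52 to 1.10). The lists for collagen folding, receptors and degradation, and those of other cell types, likewise held 0 called genes between diabetic and control mice in either muscle.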

How the data were processed

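The deposited values are RPKM per RefSeq transcript on build mm9, which the authors obtained with HOMER by counting reads in exons, per the file headers. The submitters' processing notes list TopHat and HOMER, with versions not given in the sources used here. No strand option appears in the header's command, and reads from genes that overlap, on either strand, are therefore mixed, which touches Col27a1, Col7a1, Col9a3 and Col10a1. RPKM shares 1 total among all genes of a library. Whole reads, to within 0.01, were recovered for 99.97% of values above 0 from transcript lengths and library totals. The labels' texts name more than 1 sequencing instrument, and whether the library sets differ in instrument was not tested.

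Each symbol was represented by its most abundant transcript by mean RPKM. Genes with at least 1 RPKM in at least 6 libraries were fitted on log2(RPKM + 0.5) in limma 3.58.1 (R 4.3.3), with a mean for each of the 4 groups and a variance trend on intensity, with Benjamini-Hochberg adjustment over all 12382 genes and calls at an adjusted p under 0.05. The fit was tested on simulated data. The library sets were told apart at a Gapdh level of 100.0 RPKM. Same-numbered gastrocnemius and adductor libraries of a mouse group deviated together, with r of 0.25 to 0.74 over genes in 12 of 12 pairs. Within the library sets r was -0.09 to 0.63, with 7 of 12 over 0.1. Diabetic 5 and 6 are the only diabetic libraries of the second set in each muscle. Their r of 0.13 is therefore the same by construction, and it is counted for both. The labels do not say that a number marks an animal. For the 60 library pairs within groups, the chi-square of the reads divided by its degrees of freedom lay between 8.97 and 269, so none was counted as a repeat.

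Alternatives were pseudocounts of 0.1 and 1, no filter, a filter of 12 libraries, median-of-ratios scaling, quantile normalization, voom weights on recovered reads, the longest transcript, a term for the library set, each set alone, the replicate block and leaving out each library. The first set without control adductor 2 was added after the data were seen. Members, classes and lists were chosen with earlier results of these data known. The naming rule gave levels for the most abundant members of each class and for a list of chains always named, the 6 called members with the largest differences each way and, where fewer than 3 were called, the 5 smallest p-values. Where further chains are named, they were added after their values were seen. The bone, keratinocyte, Schwann cell, smooth muscle and adipocyte lists had 2, 2, 5, 7 and 6 tested genes. In diabetic mice 1, 1, 3, 4 and 1 of them were called higher and 1, 0, 0, 2 and 0 lower. Of all genes tested, 48.1% were called higher and 8.83% lower there, and 54.4% and 8.7% in control mice. For these lists it was 1, 1, 3, 4 and 0 higher and 1, 0, 0, 2 and 1 lower in control mice. Their median log2 differences were 0.61, 0.20, 0.69, 0.89 and 0.58 in diabetic mice. In control mice they were 0.65, 0.67, 0.65, 0.85 and -0.36. Under median-of-ratios scaling 1, 0, 1, 3 and 0 were called higher and 1, 1, 0, 2 and 2 lower in diabetic mice. That scaling gave 1, 0, 1, 3 and 0 higher and 1, 0, 1, 2 and 2 lower in control mice.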

Additional observations from a re-analysis of the deposited data

Results flagged for a closer look

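Sets of 6 libraries, 1 for each tested collagen chain gene and group, were examined on log2(RPKM + 0.5). Of these 108 sets, 12 held a library whose gap to its nearest neighbour was over 0.625 of the whole range on that scale. For independent, normally distributed values this would be met in about 1 in 20 sets, but the sets here share their libraries. Control adductor 2 was the library in 7 of them. It held 2.92 RPKM of Col12a1 against 0.118 to 0.602 RPKM in the other 5 control adductor libraries, 5.13 RPKM of Col16a1 against 0.342 to 1.16 RPKM, and 6.70 RPKM of Col8a1 against 1.16 to 2.34 RPKM. Of the chains that were close to 0 in the other 5 control adductor libraries, it held 0.801 RPKM of Col26a1 against 0.0278 to 0.0732 RPKM. It also held 0.471 RPKM of Col19a1 against 0.122 to 0.157 RPKM. For Col27a1 it held 0.568 RPKM against 0.0609 to 0.211 RPKM, and for Col8a2 1.03 RPKM against 0.0228 to 0.209 RPKM. Diabetic adductor 1 and 4 held more reads of Col19a1, 253 and 138 against 71 in control adductor 2.

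Diabetic adductor 4 was the library in 4 sets, with 113 RPKM of Col1a1 against 31.3 to 43.9 RPKM in the other 5 diabetic adductor libraries, 85.5 RPKM of Col1a2 against 28.0 to 41.5 RPKM, 9.18 RPKM of Col5a1 against 3.39 to 4.84 RPKM and 0.472 RPKM of Col8a2 against 0.105 to 0.187 RPKM. In the remaining set control gastrocnemius 3 held 4.18 RPKM of Col22a1, the chain of the junction between muscle and tendon, against 0.789 to 1.54 RPKM in the other 5. Without control gastrocnemius 3 the muscle difference of Col22a1 in control mice was 0.49, with an adjusted p of 0.062.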

How the results depend on the processing

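Of 51 calls of single collagen chain genes between the muscles, all 51 kept their direction and their side of the threshold under both other pseudocounts, voom weights, the longest transcript, a term for the library set and the replicate block. With no filter 50 did, with median-of-ratios scaling 45, with quantile normalization 45, in the first library set 49, in the second 46 and in the first without control adductor 2, added after the data were seen, 49. The stricter filter gave no value for 7 and kept the other 44. The calls lost were of Col11a2, Col19a1, Col22a1 and Col4a5. The replicate block changed 1 call, that of Col4a5 in control mice (adjusted p = 0.0073). The numbers of genes called higher stayed at 22 to 26 of 27 (37 and 33 of 44 with no filter), and leaving out 1 library gave 26 in diabetic mice and 23 to 26 in control mice. On recovered reads with voom weights 26 were called higher in each mouse group, among 5987 genes higher and 1079 lower of all tested in diabetic mice and 6771 and 1068 in control mice. Quantile normalization called 1 gene lower in control mice, Col6a6 at -0.82.

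Directions turned for 4 low genes between the muscles. Col6a6 went to -0.27 (median-of-ratios), -0.66 (quantile) and -0.23 (second set) in diabetic mice, and to -0.0027 (pseudocount 1), -0.38, -0.82, -0.20 (first set) and -0.14 (first set without control adductor 2) in control mice. Under quantile normalization Col11a2, Col22a1 and Col4a5 fell to -0.25, -0.15 and -0.26 in control mice. Leaving out 1 library gave Col6a6 -0.029 to 0.41 in diabetic mice and -0.17 to 0.29 in control mice.

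Between diabetic and control mice, where no gene was called, directions turned in gastrocnemius for Col4a1 at 0.040 (median-of-ratios) and 3.3e-05 (quantile), and at -0.18 to 0.14 when 1 library was left out. In adductor the second set gave -0.088 for Col19a1, 0.40 for Col5a3, 0.18 for Col4a1, 0.48 for Col15a1, 0.0088 for Col26a1, 0.38 for Col1a2, 0.70 for Col3a1 and 0.48 for Col6a1. Col1a1 was -0.15 with a set term and -0.80 in the first set, and Col26a1 0.054 in the first set without control adductor 2. Leaving out 1 library gave -0.20 to 0.61 for Col1a1, -0.38 to 0.29 for Col1a2, -0.46 to 0.35 for Col3a1, -0.44 to 0.012 for Col15a1, -0.24 to 0.024 for Col26a1 and -0.42 to 0.088 for Col6a1. The difference of effects of Col11a2 was -0.11 in the second set. The cause of these turns was not tested.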
